A study of Mus musculus with 49 samples.

Results

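Insertions of 2 or more bases at Cas9 target sites were examined in a clonal mouse embryonic stem (mES) cell line. A read was taken when its barcode belonged to 1 of the 36 integrated reporters (IRs) of the line, its lesion class was insertion, and a single stretch of at least 2 bases had been gained. These reads numbered 5517 of 577722 reads, or 0.955% (95% Wilson interval 0.93 to 0.98%), of which 962 came from sgRNA1, 1841 from sgRNA2 and 2714 from sgRNA3. They were chosen by lesion class and inserted length, so their abundance and their lower size limit are descriptions of the selection, and no test was made on them.

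The line, EStTA-PB-B-18, was grown from 1 sorted cell and is therefore 1 clone. Its parent line, EBRTcH3 (EStTA), has a transactivator under tetracycline control behind the cell's own ROSA26 promoter. Each IR is a barcoded EGFP gene behind the mouse PGK promoter, carried by a piggyBac transposon. Cells of all 3 groups received a plasmid for Cas9 and 1 of the 3 guides together with a piggyBac transposase plasmid (mPB-L3-ERT2.TatRRR-mCherry) that carries the red fluorescent protein mCherry, by which transfected cells were sorted. There was 1 sample per guide, in which the authors had merged their replicates, so guides were compared by values and by the number of IRs that showed a direction. Reads held 80 bases with sgRNA1 and sgRNA2 and 68 with sgRNA3. The sgRNA3 reads also entered the reporter from the other end. Read positions at which over 3% of wild-type reads differed numbered 10 with sgRNA1 and sgRNA2 and 0 with sgRNA3. Every comparison with sgRNA3 coincides with these differences, and their part was not tested. Depth was 198078, 169141 and 210503 reads for sgRNA1, sgRNA2 and sgRNA3, with 1581 to 11481 reads per IR and guide. Amplicons of the cell line carried no molecular identifiers, so intervals cover counting error only. An untreated culture of the line was not analysed here.

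Cas9 cuts both DNA strands near the PAM, and end joining closes the break, often with the loss or gain of a few bases. When the ends are staggered, filling in of an overhang before ligation duplicates the bases of that overhang. Longer gains are known from polymerases that copy a nearby stretch of either strand before the ends are joined, and from capture of DNA fragments from elsewhere in the cell.

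The 3 targets are shown along the guide strand, because each insertion is described by where it lies against these bases. Capitals mark the PAM.
sgRNA1 target: gccgagagtgatcccggcggCGG
sgRNA2 target: cgccgggatcactctcggcaTGG
sgRNA3 target: agtgtcacctaaatcgtatgCGG
The expected cut lies before the third base from the PAM. The same sites are shown around the cut, with the 2 bases on its PAM-distal side (bases 5 and 4 from the PAM) in capitals.
sgRNA1 site: gagtgatcccGGcggcggtca
sgRNA2 site: ggatcactctCGgcatggacg
sgRNA3 site: cacctaaatcGTatgcggccg
The most frequent insertion of each guide is shown next, with the gained bases in capitals, followed by the second most frequent one of sgRNA3.
sgRNA1, GG: gagtgatcccggGGcggcggtca
sgRNA2, CG: ggatcactctcgCGgcatggacg
sgRNA3, TT: cacctaaatcgtTTatgcggccg
sgRNA3, GT: cacctaaatcgtGTatgcggccg

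Insertions of 2 or more bases were found at 36 of 36 IRs with each guide. Their share of reads per IR was 0.477% ± 0.161 (SD, n = 36 IRs), 1.10% ± 0.272 and 1.32% ± 0.339 for sgRNA1, sgRNA2 and sgRNA3. Pooled over IRs, the shares were 0.486% (0.456 to 0.517%), 1.09% (1.04 to 1.14%) and 1.29% (1.24 to 1.34%). The share was higher with sgRNA2 than with sgRNA1 at 36 of 36 IRs, and higher with sgRNA3 than with sgRNA1 at 35 of 36, the exception being BC_18. Between sgRNA3 and sgRNA2 the direction was less uniform, with sgRNA3 higher at 26 of 36 IRs. It turned when at least 3 bases were asked for, with sgRNA3 higher at 7 of 36 IRs and mean shares of 0.702% with sgRNA2 and 0.436% with sgRNA3. Under this limit sgRNA3 was above sgRNA1 at 26 of 36 IRs, and sgRNA2 above sgRNA1 at 36. Among all mutated reads, insertions of 2 or more bases made up 0.951%, 2.06% and 1.96% for sgRNA1, sgRNA2 and sgRNA3.

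The SD over IRs exceeded the mean counting error of a single IR, which was 0.0937, 0.158 and 0.156 percentage points for sgRNA1, sgRNA2 and sgRNA3. This error takes each read as a separate molecule, so the comparison cannot show that IRs differed. With sgRNA1 the share was lowest at BC_19, at 0.121% (0.0553 to 0.263%), an intergenic IR at position 66033486 of chromosome 1 (mm9). It was highest at BC_10, at 0.751% (0.554 to 1.02%), an IR with no mapped position in the deposited table. With sgRNA2 the extremes were BC_28, at 0.706% (0.511 to 0.976%), and BC_30, at 1.73% (1.29 to 2.33%), neither of them with a mapped position. With sgRNA3 the lowest was BC_18, at 0.53% (0.365 to 0.77%), an intergenic IR at position 90602024 of chromosome 10. The highest was BC_35, at 1.98% (1.54 to 2.54%), at position 123391370 of chromosome 3 in an intron of Ndst3, a gene for a heparan sulfate sulfotransferase. The extremes of 1 guide were not those of another. BC_19, lowest with sgRNA1, stood at 1.86% with sgRNA3, and BC_35, highest with sgRNA3, stood at 0.171% with sgRNA1. Across the 36 IRs, Pearson's r between shares was 0.274 for sgRNA1 and sgRNA2, -0.364 for sgRNA1 and sgRNA3 and 0.236 for sgRNA2 and sgRNA3, given as a description of IRs that share the same clone.

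Just outside the size limit, 1-base insertions counted 3409, 6550 and 50320 reads with sgRNA1, sgRNA2 and sgRNA3. Just inside it, 2-base insertions counted 406, 655 and 1804 reads. There were thus 8.4, 10.0 and 27.9 reads with 1 gained base for each read with 2. The step from 2 to 3 bases was smaller, at 5.21, 4.23 and 7.49 reads with 2 bases for each read with 3. Over the 36 IRs, the share of insertions of 2 or more bases had a Pearson's r of -0.14, 0.456 and 0.545 with the share of 1-base insertions for sgRNA1, sgRNA2 and sgRNA3, both being shares of the same reads.

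Size distributions of reads differed between guides. Reads with 2 gained bases made up 42.2% (39.1 to 45.3%) of the set with sgRNA1, 35.6% (33.4 to 37.8%) with sgRNA2 and 66.5% (64.7 to 68.2%) with sgRNA3, and the median size was 3, 4 and 2 bases. With each distinct insertion counted once per IR, the shares of 2-base insertions were 31.4%, 25.4% and 35.2%, so most of the distance between sgRNA3 and sgRNA1 lay in read numbers of the same insertions. Sizes of 6 to 19 bases took 24.3% (21.7 to 27.1%), 36.4% (34.3 to 38.7%) and 9.06% (8.04 to 10.2%) of the reads in the same order. Insertions of 20 or more bases took 14.1% (12.1 to 16.5%), 3.91% (3.12 to 4.9%) and 8.77% (7.76 to 9.89%). The window read past the cut held 44, 29 and 42 bases with sgRNA1, sgRNA2 and sgRNA3, so long insertions had the least room with sgRNA2. The part of this window in the shares was not tested. The longest insertion as deposited had 78, 78 and 50 bases, and the longest with at least 10 reporter bases left on each side had 41, 29 and 35 bases. Reads with 70 or more gained bases, 5 with sgRNA1 and 15 with sgRNA2, kept almost no reporter sequence.

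With sgRNA2, even sizes outnumbered odd ones. Between 4 and 17 bases, 66.0% (62.9 to 68.9%) of 934 sgRNA2 reads had an even size, against 59.6% (54.1 to 64.9%) of 317 sgRNA1 reads and 50.6% (45.8 to 55.5%) of 405 sgRNA3 reads. The sgRNA2 set held 204 reads with 4 bases against 84 with 5, 122 with 6 against 68 with 7, and 97 with 8 against 59 with 9, whereas 12 and 13 bases had 30 and 32 reads.

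Most insertions could be placed at the cut. An insertion whose bases repeat the reporter can be written at several neighbouring places, and it was counted at the cut if any of these was the cut. By this measure 74.2% (71.4 to 76.9%), 63.3% (61.1 to 65.5%) and 80.4% (78.8 to 81.8%) of reads lay at the cut with sgRNA1, sgRNA2 and sgRNA3. By the deposited position alone the shares were 44.2%, 55.2% and 67.9%. Insertions of 6 or more bases were at the cut less often than shorter ones with each guide. Of 2-base reads, 86.0%, 71.9% and 94.0% lay at the cut, and of 3- to 5-base reads 71.0%, 77.4% and 66.0%. Of reads with 6 to 19 bases 59.8%, 50.2% and 38.2% did, and of reads with 20 or more 68.4%, 20.8% and 46.2%. Within 5 bases of the cut lay 97.2% (95.9 to 98.1%), 97.0% (96.1 to 97.7%) and 99.2% (98.8 to 99.5%). The shares differed between reads with and without base changes beside the insertion, and a gap that the alignment writes away from the junction can itself leave such changes. Read positions at which over 3% of wild-type reads differed did not count as changes. With sgRNA2 these included positions 43, 45, 47 and 49, beside the cut after position 51. With sgRNA1 they included 43 and 45, beside the cut after position 36. With sgRNA3 there were 0, so the lack of a change was a stricter condition there. Among reads with no counted change within 10 bases on either side, which numbered 626, 907 and 2206, 92.8%, 92.8% and 95% lay at the cut. Among the others the share was 39.6%, 34.7% and 16.9%. When the insertion was widened to take in the changed bases beside it, 91.5%, 93.5% and 92.6% of all reads reached the cut, a step that can only bring an insertion closer to it.

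The sgRNA1 and sgRNA2 cuts lie 15 bases apart in the same amplicon, so each library gives a level for insertions at a site that its own guide does not cut. Among reads without base changes beside the insertion, 0 sgRNA1 reads lay at the sgRNA2 cut, where the sgRNA2 library had 842. At the sgRNA1 cut the sgRNA2 library had 3 reads and the sgRNA1 library 581. Among all reads of the set, insertions more than 5 bases from the own cut numbered 27, 56 and 22 reads with sgRNA1, sgRNA2 and sgRNA3. Of these, 5, 10 and 1 had no base change beside the insertion.

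Some insertions recurred at many IRs. The leading insertion of a guide had the most reads, ties included, at 20 of 36 IRs for sgRNA1, 20 for sgRNA2 and 34 for sgRNA3. With sgRNA3, TT made up 36.8% (35.1 to 38.7%) of the set with 1000 reads and was present at 36 of 36 IRs. It took 0.485% ± 0.212 (SD, n = 36 IRs) of the reads of an IR, from 0.138 to 0.99%. TT adds the base next to the cut, T, 2 more times. Next came GT with 326 reads at 35 IRs and AT with 156 reads at 29 IRs, both of which repeat 2 reporter bases beside the cut. CT followed with 74 reads at 22 IRs. Next was TT placed 1 to 2 bases to the PAM side of the cut, with 66 reads, of which 54 carried another base change beside it.

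With sgRNA1 the leading insertion was GG with 148 reads, 15.4% (13.2 to 17.8%) of the set, at 29 IRs. It repeats bases 5 and 4 from the PAM, as GT does for sgRNA3. CG had 42 reads at 19 IRs and also repeats reporter bases at the cut. TA had 21 reads at 11 IRs, GA 20 reads at 11 IRs and AA 20 reads at 5 IRs, none of which repeats the adjacent bases.

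With sgRNA2 the leading insertion was CG, again a repeat of bases 5 and 4, with 205 reads, 11.1% (9.78 to 12.7%) of the set, at 34 IRs. Second was GT, deposited 3 bases to the PAM-distal side of the cut, with 111 reads at 27 IRs, every one of which had changed bases beside it. TACA had 77 reads at 25 IRs, 62 of them with such changes. CC had 55 reads at 21 IRs. AT had 43 reads at 17 IRs, 39 of them with such changes, and in 37 reads it stood for G replaced by CAT.

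Repetition of bases 5 and 4 was thus the leading or second insertion of each guide. Of all 2-base insertions, 53.0% (48.1 to 57.8%) of 406 reads with sgRNA1, 41.2% (37.5 to 45.0%) of 655 with sgRNA2 and 86.3% (84.6 to 87.8%) of 1804 with sgRNA3 could be written at the cut with base 4 from the PAM as the second gained base. The first gained base equalled base 3, on the PAM side, in 16.0% (12.8 to 19.9%), 4.58% (3.23 to 6.46%) and 11.5% (10.1 to 13.1%). An insertion 1 base to the PAM-distal side can be moved to the cut when it carries base 4 and then has it second, and the same holds for base 3 on the other side, so the rule for placement favours both values. Base 4 is G at the sgRNA1 and sgRNA2 sites and T at the sgRNA3 site. A pair of identical bases was gained in 54.7%, 26.1% and 63.7% of the 2-base reads that could be written at the cut, and the doubled base 4 took 148, 20 and 1000 reads. With sgRNA2, GG was thus far behind CG, whereas with sgRNA3 TT was ahead of GT. At the sgRNA1 site bases 5 and 4 are both G, so that repeating this pair and adding G 2 times give the same sequence.

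Gained bases that copied the adjacent reporter bases in full made up 22.9% (20.3 to 25.6%) of reads with sgRNA1, 15.8% (14.2 to 17.5%) with sgRNA2 and 18.9% (17.4 to 20.4%) with sgRNA3. They came from few distinct insertions, 8 of 359, 14 of 552 and 9 of 334, or 2.23%, 2.54% and 2.69%. Counted once per IR, the shares were 12.1%, 8.97% and 13.4%. The order of the guides turned on how base 4 added 2 times is treated, since GG with sgRNA1 counts as a copy and TT with sgRNA3 does not. With no such insertion counted as a copy, the shares of all reads of the set were 7.48% (5.99 to 9.32%), 14.7% (13.1 to 16.4%) and 18.9%. With all of them counted as copies the shares were 22.9%, 15.8% and 55.7% (53.8 to 57.6%). Copies were concentrated in the shortest size. Of 2-base insertions, 52.0% (47.1 to 56.8%), 36.2% (32.6 to 39.9%) and 26.8% (24.8 to 28.9%) were adjacent copies. Of 3- to 5-base insertions, 4.84% (2.57 to 8.94%), 12.0% (9.26 to 15.3%) and 6.1% (4.2 to 8.79%) were. At 6 to 19 bases the counts were 0 of 234 (upper limit 1.62%), 0 of 671 (upper limit 0.569%) and 3 of 246, and at 20 or more bases 0 of 136, 0 of 72 and 0 of 238. The largest 3-base copy was TCG with sgRNA2, which repeats the 3 bases before the cut and had 27 reads at 12 IRs. The leading 3-base insertion of sgRNA3, TAT, had 43 reads at 14 IRs.

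Longer insertions were compared with both strands of the reporter. For this, the gained bases were joined with changed bases beside them, and these together are called the new bases. A match counted if it ran over at least 10 bases including at least 4 new ones. A match on the other strand was found in 21.3% (19.5 to 23.3%) of sgRNA2 reads, against 3.95% (2.89 to 5.38%) with sgRNA1 and 1.73% (1.3 to 2.3%) with sgRNA3. With sgRNA2 such reads occurred at 36 of 36 IRs and made up 20.6% ± 8.1 (SD, n = 36 IRs) of the set at an IR, while they occurred at 17 and 13 IRs with sgRNA1 and sgRNA3. Short matches weighed heavily in this value, since 7.22% of sgRNA2 reads matched over at least 12 bases and 26.6% over at least 8. With sgRNA1 and sgRNA3 the shares were 2.39% and 0.958% at 12 bases. The match includes reporter bases kept beside the new ones, and in 158 of the 393 sgRNA2 reads the new bases alone, TGTACA, read the same on both strands. In these 158 reads the kept bases alone set the strand. The match ran over at least 10 bases on the other strand and at most 6 on the same strand. The kept base directly before TGTACA lay at read position 47 or 49. Over 3% of wild-type reads differed at each, and the consensus base was used there, so part of the match was not read from these reads. Which strand the 158 reads copied cannot be told from the new bases. With these reads not counted as matches, 12.8% (11.3 to 14.4%) of all sgRNA2 reads of the set matched the other strand, at 35 IRs. The new bases alone were found whole on the other strand and not on the same strand in 128 of the 393 reads, and on neither strand whole in 107. With sgRNA1 these counts were 12 and 26 of 38 reads, and with sgRNA3 16 and 31 of 47.

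The sgRNA2 matches fell largely on 1 place. Of 393 reads, 356, or 90.6% (87.3 to 93.1%), matched the other strand of the bases 11 to 20 after the cut. These bases are shown with the 28 bases that follow the cut and with their other strand, the matched stretch in capitals.
sgRNA2, bases after the cut: gcatggacgaGCTGTACAAGtaagaatt
sgRNA2, other strand of these bases: aattcttaCTTGTACAGCtcgtccatgc
The 4 most frequent products are shown with the new bases in capitals, the lower-case bases being the reporter consensus on either side.
sgRNA2, 100 reads: ggatcactTGTACAgcatggacg
sgRNA2, 58 reads: ggatcactctTGTACAgcatggacg
sgRNA2, 32 reads: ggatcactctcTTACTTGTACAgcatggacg
sgRNA2, 26 reads: ggatcactctcTTGTACAgcatggacg
The new bases of the first and the second are the stretch that reads the same on both strands. All 4 end in the same new bases next to the first base kept on the PAM side, and they differ in how many bases precede these and how many reporter bases were lost. The first replaced 4 reporter bases by 6 and was deposited as the 2-base insertion GT. The second replaced 2 bases by 6 and was deposited as the insertion TACA. The third replaced 1 base by 11 and was found at 12 IRs, and the fourth replaced 1 by 7 and was found at 10 IRs. The first was found at 26 IRs and the second at 20. Of the 393 reads, 307, or 78.1%, had changed bases beside the deposited insertion, so that its deposited size was below the number of new bases. Of the 268 other-strand reads with 4 to 17 gained bases, 80.6% (75.4 to 84.9%) had an even size, and without them 60.1% (56.3 to 63.7%) of 666 sgRNA2 reads did. A few products carried this, since 4 of the 5 most frequent ones fell in this range with 133 reads, each of an even size, and of the other 135 reads 61.5% (53.1 to 69.3%) had an even size.

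With sgRNA1 and sgRNA3, matches elsewhere on the same strand were more frequent than matches on the other strand. They made up 10.6% (8.81 to 12.7%) of sgRNA1 reads, at 29 IRs, and 4.64% (3.91 to 5.5%) of sgRNA3 reads, at 26 IRs, against 3.48% (2.73 to 4.41%) of sgRNA2 reads, at 21 IRs. Between 6 and 19 bases, where a match is easier to tell, same-strand matches took 23.5% (18.5 to 29.3%), 8.2% (6.35 to 10.5%) and 26.4% (21.3 to 32.3%) of reads with sgRNA1, sgRNA2 and sgRNA3. Other-strand matches took 11.5% (8.05 to 16.3%), 29.8% (26.5 to 33.4%) and 13.8% (10.1 to 18.7%) at these sizes. No match by this measure was found for 65.0%, 62.0% and 58.5%.

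Short and long insertions differed in how often they recurred. Far fewer sequences are possible with 2 bases than with 6 or more, so lower recurrence of long insertions follows in part from their length. The comparison does not separate this part. Of the distinct 2-base insertions, 14 of 35, 19 of 37 and 10 of 27 were seen at a single IR with sgRNA1, sgRNA2 and sgRNA3, and these held 4.93%, 5.5% and 1.05% of the 2-base reads. Of the distinct insertions of 6 to 19 bases, 135 of 140, 293 of 322 and 94 of 100 were seen at a single IR, holding 93.2%, 72.1% and 90.7% of the reads. With 20 or more bases it was 103 of 103, 60 of 60 and 113 of 115. The 3 insertions of 6 to 19 bases that were seen at 10 or more IRs were all from sgRNA2 and held 78 reads. In all, 54.3%, 52.0% and 32.9% of the distinct insertions rested on 1 read, whereas the 5 most frequent ones held 26.1% (23.4 to 29.0%), 26.7% (24.7 to 28.7%) and 59.8% (57.9 to 61.6%) of reads.

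Insertions of 20 or more bases were compared with the mouse genome (NCBIM37). There were 196 distinct insertions with at least 10 bases of read on each side, 80 from sgRNA1, 16 from sgRNA2 and 100 from sgRNA3. Of these, 8 held 20 or more bases of the reporter, 16 were found whole in the genome, 29 shared a stretch of at least 20 bases with it, and 143 shared no such stretch with either. The reporter compared was a stretch of 114 bases around the sites, and the transfected plasmids and the rest of the reporter were not searched, so an origin in these was not tested. Of the 16 whole matches, 9 fell on several sites and 7 on a single site. The 7 included a 32-base stretch of mt-Nd5, a mitochondrial gene for a subunit of respiratory complex I, at positions 12135 to 12166, in 1 read, and a 23-base exon stretch of Tmem41b on chromosome 7, positions 117129825 to 117129847, in 2 reads. These were named after their values were seen. The IRs that carried 3 of the 7 have no mapped position, and the other 4 matches lay on chromosomes other than that of their IR.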

How the data were processed

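Each read had been assigned to an IR by its barcode and compared with the wild-type sequence by semi-global alignment. What the authors deposited for each read is a class of lesion, the altered bases, their position and an alignment score, with triplicates merged. The score is unnormalized and was used only in an alternative. The program used for this alignment is not given in the sources used here. IR positions are on mm9, as mapped by the authors. The 2 count columns of another study and the pool tables were not used.

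The reporter sequence was the consensus of wild-type reads at the 36 IRs. Read positions at which over 3% of wild-type reads differed, 10 with sgRNA1 and sgRNA2 and 0 with sgRNA3, were not counted as base changes. Kept bases at these positions were set to the consensus when matches were sought. Equivalent placements, adjacent copies and matches were computed in Python 3.11.15 with numpy 2.4.6, and 95% Wilson intervals with scipy 1.17.1. The code was tested on simulated reads. Genes are from GENCODE. Named were the 5 insertions with most reads per guide, the IRs with the highest and lowest share, and the longest insertion by size. The members and the measures were chosen with earlier results of these data known, and the comparison with the other strand, with the genome and with widened insertions after seeing the data.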

Additional observations from a re-analysis of the deposited data

Results flagged for a closer look

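Reads with several separate insertions were outside the set described here, although at least 1 of their insertions had 2 or more bases in 176 reads with sgRNA1, 388 with sgRNA2 and 368 with sgRNA3. They are given because no comparison used them and their number exceeded the 3 reads that a count of 0 allows. No untreated culture was analysed, so the level that sequencing or alignment error gives is not known. They made up 0.0889% (0.0767 to 0.103%), 0.229% (0.208 to 0.253%) and 0.175% (0.158 to 0.194%) of reads at the 36 IRs.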

How the results depend on the processing

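Values are in the order sgRNA1, sgRNA2, sgRNA3. The share of reads with an insertion of 2 or more bases moved by less than its counting interval when reads were pooled, when all barcodes were used, and when only insertions within 5 bases of the cut were kept. It fell to 0.297%, 0.889% and 1.04% without the lowest 10% of alignment scores, and to 0.276%, 0.702% and 0.436% when at least 3 bases were asked for, which put sgRNA3 below sgRNA2. The score filter removed 4.19%, 3.51% and 0.721% of 2-base reads, 23.7%, 7.67% and 52.8% of reads with 3 to 5 bases, 85.9%, 48.7% and 100% of reads with 6 to 19 bases, and every read with 20 or more. Its cutoff was taken from the scores of each guide, at 164, 155 and 152, on reads of 80, 80 and 68 bases. The filter thus acted unequally on the guides. The parts that the cutoffs, read length and mismatches had in this were not tested. The share of adjacent copies was 12.1%, 8.97% and 13.4% with each insertion counted once per IR, 37.9%, 20.4% and 25.4% under the score filter, and 1.62%, 4.47% and 3.19% at 3 or more bases. In alternatives added after seeing the data, it was 7.48% for sgRNA1 with base 4 added 2 times not counted as a copy, and 55.7% for sgRNA3 with it counted. The share at the cut was 69.0%, 60.0% and 62.1% once per IR, 44.2%, 55.2% and 67.9% with the position as deposited, and 91.8%, 86.7% and 95.9% within 2 bases. Chosen after seeing the data, it was 92.8%, 92.8% and 95% without base changes beside the insertion, and 91.5%, 93.5% and 92.6% with the insertion widened to them. The share of 2-base reads was 31.4%, 25.4% and 35.2% once per IR. Other-strand matches, also chosen after seeing the data, were 8.84%, 26.6% and 2.73% at 8 or more bases, and 2.39%, 7.22% and 0.958% at 12 or more. With new bases that read the same on both strands not counted as matches, the sgRNA2 value was 12.8%, and the other 2 did not change. Of 66 alternatives, 24 stayed within the counting interval. No paired analysis was possible because there was 1 sample per guide.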

Other observations

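At BC_10, an IR without a mapped position, 2 sgRNA2 reads carried different insertions that matched a single place in the genome each, and both places were on chromosome 13, at positions 114947616 to 114947635 and 114947739 to 114947767, 104 bases apart. The first lies in an exon of Arl15, and the second outside annotated genes. Each rests on 1 read, and they were singled out after their values were seen.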
